A study of Mus musculus with 14 samples.

Results

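The 10 genes described here encode proteins that salivary glands secrete. They are the mucin-like and proline-rich proteins Prol1, Smr3a, Smr2, Mucl2, Prp2 and Prpmp5, the parotid secretory protein Bpifa2, the prolactin-induced protein Pip, the secreted carbonic anhydrase Car6 and salivary amylase Amy1. They were chosen by symbol as salivary genes whose probe sets were among the highest values on every array, so their high level is a description and not a finding. Of 12422 non-control probe sets on the array, 14 were annotated to 1 of these symbols and to no other gene, and all 14 passed the filter on low values, as 8916 probe sets did in all. One further probe set, annotated to both Mucl1 and Mucl2 and reading 5042.7 to 9830.5, was not counted.

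The study measured RNA labelled as mouse lymph node on 14 one-colour Affymetrix arrays before and after ionizing radiation. The animals lacking the kinase Atm (Atm-/-, KO) gave 3 arrays without treatment, 2 taken 30 min after irradiation and 2 taken 120 min after it, and the Atm+/+ controls (WT) gave the same numbers. The design asks how the response to DNA breaks differs where Atm, the kinase that starts the signalling from double-strand breaks, is missing. The labels name no Atm allele, strain, age or radiation dose. Nothing in the labels says that replicates are separate animals, so p-values measure only the spread between these samples, which may be technical.

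Every array had been scaled to a common mean before deposit, with a trimmed mean of 150.1 on each and medians between 61.0 and 80.4. The Atm probe set read 7.5 to 44.0 on the KO arrays and 5.5 to 55.9 on the WT arrays, and whether it lies in the disrupted stretch is not given, so it checks no label. The arrays with the lowest mean correlation to the others were KO 30 min A (0.904), KO 120 min A (0.929) and WT untreated A (0.926), against 0.939 to 0.948 for the other 11. Defining markers of the labelled tissue were checked on every array. Cd3e, a subunit of the T cell receptor complex, read 26.2 to 156.1 (the 28.0 to 70.7 percentile of its array), and Cd79b, a subunit of the B cell receptor complex, read 127.5 to 520.7 (66.0 to 92.2 percentile). Markers of lymph node vessels were not uniformly dim. Madcam1, an adhesion molecule of lymph node vessels, stayed at or below 71.0 and the 49.5 percentile on both of its probe sets. Glycam1, a mucin-like protein of lymph node vessels, read 151.4 to 876.5 (70.3 to 95.9 percentile). In RNA of whole tissue, fewer cells of a type and less RNA per cell cannot be told apart, and where in the sampled tissue the salivary RNA came from was not tested.

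Saliva is made by acinar cells, which fill granules with a small number of abundant proteins and release them on nervous stimulation, and it is modified on its way through the ducts. Mucins and mucin-like glycoproteins lubricate and coat, proline-rich proteins bind mineral and dietary tannins, and enzymes such as amylase start digestion. In mice the glands specialise, the parotid making most of the amylase, proline-rich and parotid secretory proteins and the submandibular gland making mucin-like, androgen-regulated and kallikrein proteins.

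In RefSeq (build GRCm38.p6) several of the genes sit among relatives. Smr3a and Smr2 are neighbouring protein-coding genes on chromosome 5, and Prol1 lies beyond Gm7714 on the same chromosome. Prp2, Prpmp5 and Pip are on chromosome 6, where Pip borders the salivary gene Sval2, and Mucl2 borders Glycam1 on chromosome 15. The 2 pairs of relatives on chromosomes 5 and 6 are shown. The probe sets of Smr3a and Smr2 differed in signal on the arrays, as described further on, whereas Prp2 and Prpmp5 both had bright probe sets on every array. The letters are the 250 bases before the annotated start, 5′ to 3′ on the gene's strand, from RefSeq (GRCm38.p6). Capitals mark the longest run shared by Smr3a and Smr2, of 55 bases, and in Prp2 and Prpmp5 the match to TATAAN that starts 20 to 45 bases before the start.
Smr3a (chr5:88002275-88002524, plus strand): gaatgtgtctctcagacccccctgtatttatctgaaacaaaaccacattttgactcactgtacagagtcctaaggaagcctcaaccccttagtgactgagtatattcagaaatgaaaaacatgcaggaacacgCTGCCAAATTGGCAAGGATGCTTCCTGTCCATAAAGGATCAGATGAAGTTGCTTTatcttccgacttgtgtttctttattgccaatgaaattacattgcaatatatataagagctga
Smr2 (chr5:88086306-88086555, plus strand): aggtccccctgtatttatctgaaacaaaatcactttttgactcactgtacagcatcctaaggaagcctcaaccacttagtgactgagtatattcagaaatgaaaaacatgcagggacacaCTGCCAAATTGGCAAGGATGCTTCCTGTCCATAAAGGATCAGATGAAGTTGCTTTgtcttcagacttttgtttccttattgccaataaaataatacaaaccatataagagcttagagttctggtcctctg
Prp2 (chr6:132595661-132595910, plus strand): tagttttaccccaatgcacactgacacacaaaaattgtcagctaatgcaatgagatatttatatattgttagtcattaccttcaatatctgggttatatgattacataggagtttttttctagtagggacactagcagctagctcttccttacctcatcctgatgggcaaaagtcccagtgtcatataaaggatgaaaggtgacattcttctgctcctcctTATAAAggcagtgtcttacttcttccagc
Prpmp5 (chr6:132314744-132314993, minus strand): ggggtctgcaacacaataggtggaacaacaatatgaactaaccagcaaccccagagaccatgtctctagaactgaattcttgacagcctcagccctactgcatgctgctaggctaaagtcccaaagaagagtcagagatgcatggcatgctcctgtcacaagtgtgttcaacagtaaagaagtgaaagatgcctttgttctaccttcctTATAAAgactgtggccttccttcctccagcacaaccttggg

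Over windows of 300 bases, reaching 50 bases past the start, the promoters of Smr3a and Smr2 were 81.6% identical, at 258 of 316 aligned columns. Those of Prp2 and Prpmp5 were 54.3% identical. The other 53 pairs among the 11 promoters of the 10 genes (Amy1 has a pair of starts) were 47.0% to 54.5% identical, with longest shared runs of 7 to 12 bases. TATAAN in the window 20 to 45 bases before the start, read on the gene's strand, was present in 5 of the 11 promoters (Bpifa2, Smr2, Pip, Prpmp5 and Prp2) and in 3.89% of 32851 RefSeq promoters. Anywhere in the 300 bases and on either strand it was in 7 of the 11 and in 24.8% of all. Smr3a is among these 7, with its match closer to the annotated start than 20 bases. The run it shares with Smr2 also begins at unlike distances, 117 bases before the start in Smr3a and 130 in Smr2. CCAAT, on either strand, was in 5 of the 11 and in 37.4% of all, and CATATG, which reads alike on both strands, was in 0 of the 11 and in 3.91% of all. These are letters in fixed windows and say nothing of which factor binds there.

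The levels set Smr2 apart from the other 9 genes. Of the 14 probe sets, 11 lay in the top 1% of non-control probe sets on every array, a class of 91 probe sets in all. The member just inside that limit was the second Mucl2 probe set (162108_f_at), whose lowest rank was the 99.1 percentile. Just outside it was the second Prpmp5 probe set (98383_r_at), whose lowest rank was the 97.98 percentile. The other probe sets outside it were the Smr2 pair, at the 28.26 to 64.96 percentile (102684_at) and the 36.61 to 70.03 percentile (102685_at), so Smr2, an androgen-regulated submandibular protein, was not among the highest values on any array. The 2 Smr2 probe sets exceeded the 40th percentile of their own array on 7 and 12 of 14 arrays. Signals of different probe sets depend on their probes, so no order of RNA amounts between genes is drawn from them.

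Among the mucin-like proteins, Prol1, the apomucin of mouse submandibular saliva also named Muc10, held the highest value of the series. Prol1 read 7951, 12238 and 11030 on the untreated KO arrays, 15198 and 10737 at 30 min and 14520 and 13673 at 120 min in KO. In WT it read 10589, 9586 and 9999 untreated, 9263 and 14186 at 30 min and 11468 and 10482 at 120 min. Its arrays differed by 1.91 times at most, and the replicates at 30 min stood well apart in each genotype.

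Smr3a, an androgen-regulated protein of the submandibular gland, read 6508, 9047 and 8210 on the untreated KO arrays, 11948 and 9735 at 30 min and 10490 and 11635 at 120 min in KO. The WT values were 8079, 8442 and 7896 untreated, 8322 and 11278 at 30 min and 9153 and 7885 at 120 min. All 4 irradiated KO arrays lay above the 3 untreated KO arrays, whereas in WT the groups overlapped.

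Smr2 gave dim and variable values on both of its probe sets. The probe set 102684_at read 53.3, 59.6 and 77.7 untreated, 92.4 and 118.5 at 30 min and 37.5 and 37.0 at 120 min in KO. WT arrays gave 44.3, 59.5 and 57.9 untreated, 43.2 and 24.1 at 30 min and 32.6 and 31.9 at 120 min. Values in KO at 30 min were above all others, and in both genotypes those at 120 min were below the untreated values. The probe set 102685_at read 41.3, 57.0 and 73.4 untreated, 159.0 and 117.5 at 30 min and 62.9 and 49.5 at 120 min in KO. Its WT values were 56.3, 61.1 and 76.8 untreated, 115.6 and 40.8 at 30 min and 88.7 and 60.7 at 120 min. Both probe sets shared the high KO values at 30 min but not the lower values at 120 min. Smr3a, whose promoter shares the run shown above with that of Smr2, was in the top 1% on every array, and Smr2 was on none. Smr3a was read by 102739_s_at only, and signals of different probe sets do not order the RNA amounts of these genes.

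Mucl2, a mucin-like salivary protein also named Spt1, was read by a bright probe set (94152_at, 6632 to 10541) and a dimmer one (162108_f_at, 3024 to 4602), whose likeness depended on the scaling. The bright one was highest in KO at 120 min (9591 and 10541) and the dimmer one in untreated WT (3753, 4602 and 4258). Their Pearson r over the 14 arrays was -0.012 (Spearman's rho -0.099) on the deposited scaling and 0.85 after quantile normalization, which gives every array the same set of values. Prpmp5, a proline-rich protein, had probe sets at 6368 to 13336 (98382_f_at) and 1557 to 4301 (98383_r_at), with r = 0.37 (rho 0.099), which became -0.11 without KO 120 min B and KO 30 min A, and with r = 0.32 after quantile normalization. The ending _f marks probe sets whose probes can match related sequences.

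Prp2, a proline-rich protein, had the widest spread among the bright probe sets. Its probe set 93650_i_at read 4648, 5164 and 9117 untreated, 9767 and 8593 at 30 min and 9478 and 7372 at 120 min in KO. In WT it read 4240, 4979 and 5504 untreated, 6009 and 8909 at 30 min and 8572 and 8469 at 120 min. All 4 irradiated WT arrays were above the 3 untreated WT arrays, while in KO the untreated array C was among the highest. Its other probe set, 93651_r_at, ranged from 5842 to 14674 and correlated with it (r = 0.79, rho 0.86), but its irradiated and untreated WT groups overlapped.

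Bpifa2, the parotid secretory protein and a member of the family of bactericidal permeability-increasing proteins, read 6603, 9619 and 9960 untreated, 13280 and 9490 at 30 min and 12302 and 12221 at 120 min in KO. Its WT values were 8824, 9100 and 7777 untreated, 9047 and 11535 at 30 min and 10545 and 8849 at 120 min. Only the KO group at 120 min was clear of the untreated arrays of its genotype. Pip, the prolactin-induced protein found in saliva and other exocrine secretions, had the narrowest range of the 14 probe sets, 4217 to 6132, or 1.45 times.

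Car6, the carbonic anhydrase of saliva, which helps to buffer it, read 5567, 6611 and 7507 untreated, 9849 and 7605 at 30 min and 8286 and 9044 at 120 min in KO. Across the WT arrays it was at 6104, 6865 and 5878 untreated, 6878 and 8153 at 30 min and 7720 and 7036 at 120 min. Its irradiated arrays were above the untreated ones in every irradiated group, by margins as small as 6878 against 6865. Both times of a genotype share the same untreated arrays. After quantile normalization the log2 changes of Car6 were -0.017 and -0.0013 in KO and 0.037 and 0.068 in WT, at 30 and 120 min. For Car6, and for Smr3a in KO and Prp2 in WT above, the share of all tested probe sets separate at both times was not counted. Amy1, salivary amylase, which cuts starch, read 5683, 7274 and 6413 untreated, 9255 and 6844 at 30 min and 7418 and 9010 at 120 min in KO. For WT the values were 6470, 7415 and 6597 untreated, 6798 and 7887 at 30 min and 6177 and 5377 at 120 min. At 120 min the Amy1 arrays lay above the untreated ones in KO and below them in WT.

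**Figure D1:**
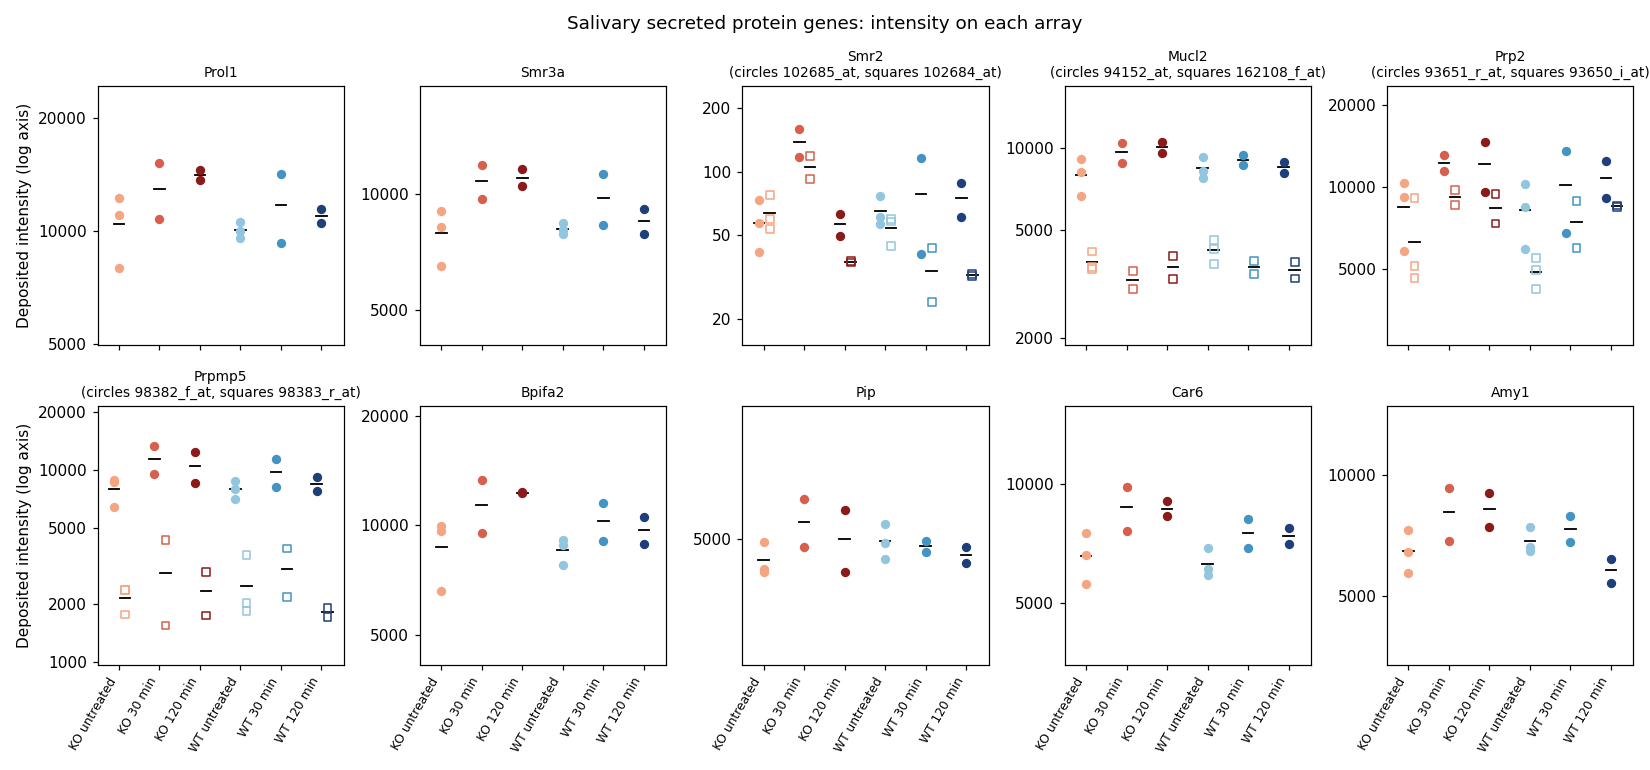
Deposited intensity (log axis, own range per panel) of the 10 salivary genes on each of the 14 arrays, by genotype and time. Points are arrays, short lines are group means, and squares are the second probe set of a gene. Smr2 lies at 24.1 to 159.0, and the brighter probe set of every other gene lies above 4217.

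Ordered by their group means, most members stood highest in an irradiated KO group and lowest in an untreated group, but neighbours in that order seldom differed beyond their arrays. For 10 of the 14 probe sets no pair of neighbouring groups was separate, the exceptions being both of Smr2, Prp2 93650_i_at and Car6. The share of all tested probe sets without such a pair was not counted, so this describes the members and does not set them apart. KO untreated A was the lowest array for 8 of the 14 probe sets and KO 30 min A the highest for 10. How often these arrays were the extremes over all tested probe sets was not counted. KO untreated A was also lowest for the mean of the bright ribosomal protein probe sets described further on (11.84). The 10 genes' mean on the log2(intensity + 32) scale, with 1 probe set per gene, was 11.94 on KO untreated A and 12.85 on KO 30 min A. On the other 12 arrays it was between 12.23 and 12.62.

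In KO at 30 min the members ran higher than in untreated KO, without a call for any of them. Changes are differences of log2(intensity + 32), which understates changes of the dim Smr2, and each stands with its standard error (SE) from a limma fit to 6 group means, with p adjusted over 8916 probe sets by the Benjamini-Hochberg method. Of the 14 probe sets 13 were higher, with a median of 0.40, against -0.0063 over all probe sets tested. The number called at an adjusted p under 0.05 was 0 of 14, where 0% of all tested probe sets were called (746 of them, 5 of these members, had an unadjusted p under 0.05). The largest was Smr2 102685_at, at 138.2 ± 29.3 in KO at 30 min and 57.2 ± 16.1 in untreated KO (SD, n = 2 and 3), a change of 0.94 ± 0.28 (adjusted p = 0.403). Smr3a changed by 0.46 ± 0.20 (adjusted p = 0.571). The arrays at 30 min were all above the untreated ones for 6 of the 14, Smr3a, Car6, both of Smr2 and 1 probe set each of Prp2 and Prpmp5, where 10.8% of all tested probe sets did so. They were all below for 1, the dimmer Mucl2 probe set, where 11.7% did so. Without KO 30 min A, the array farthest from the others, the members' median change was 0.19, and without KO untreated A it was 0.31.

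In KO at 120 min 11 of the 14 probe sets were higher than untreated, with a median change of 0.36 against -0.0032 over all tested, and again 0 of 14 were called, beside 0% of all tested (651 probe sets, 4 of these members, had an unadjusted p under 0.05). Bpifa2 averaged 12260 ± 57.9 in KO at 120 min and 8727 ± 1850 in untreated KO (SD, n = 2 and 3), a change of 0.51 ± 0.22 (adjusted p = 0.680). Smr3a changed by 0.49 ± 0.20 (adjusted p = 0.668) and Smr2 102684_at by -0.46 ± 0.19 (adjusted p = 0.677). Groups were separate and higher for 6 of the 14 (Bpifa2, Amy1, Prol1, Smr3a, Car6 and the bright Mucl2 probe set), beside 13.2% of all tested, and separate and lower for 1, Smr2 102684_at, beside 13.8%. Both KO comparisons use the same 3 untreated arrays, among them KO untreated A. Without KO untreated A the median was 0.24, and without KO 120 min B it was also 0.24.

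In WT the members' median changes were closer to 0 than in KO. At 30 min 11 of the 14 were higher, with a median of 0.22 against -0.012 over all tested, and 0 of 14 were called, beside 0.101% of all tested (9 probe sets). At 120 min 9 of the 14 were higher, with a median of 0.079 against -0.030, and 0 of 14 were called, beside 0.471% (42 probe sets). Prp2 93650_i_at changed most at 120 min, with 8520 ± 73.3 in irradiated WT and 4907 ± 635 in untreated WT (SD, n = 2 and 3), a change of 0.80 ± 0.27 (adjusted p = 0.389). Groups were separate and higher for Prp2 93650_i_at and Car6 at both times, 2 of 14 beside 9.07% of all tested at 30 min and 12.2% at 120 min. Groups were separate and lower for Smr2 102684_at at both times and for Amy1 at 120 min, 1 of 14 beside 10.4% at 30 min and 2 of 14 beside 15.2% at 120 min. The medians rested on single arrays: without WT 30 min B the median at 30 min was 0.039, and without WT 120 min A that at 120 min was -0.047.

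The size and number of these differences depended on how the arrays were scaled. After quantile normalization the members' median change was 0.045 in KO at 30 min, -0.017 in KO at 120 min, 0.010 in WT at 30 min and -0.012 in WT at 120 min. The probe sets higher than untreated then numbered 9, 6, 8 and 7 of 14 in these comparisons. With each array's median subtracted instead, the medians were 0.39, 0.38, 0.24 and 0.12. The probe sets called were 0 of 14 on each of these scales. Quantile normalization ties probe sets at the top of an array to the same few values, which limits what it can show for them. Smr2 lies outside that range and kept its changes, with 0.95 for 102685_at and 0.51 for 102684_at in KO at 30 min after quantile normalization.

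**Figure D2:**
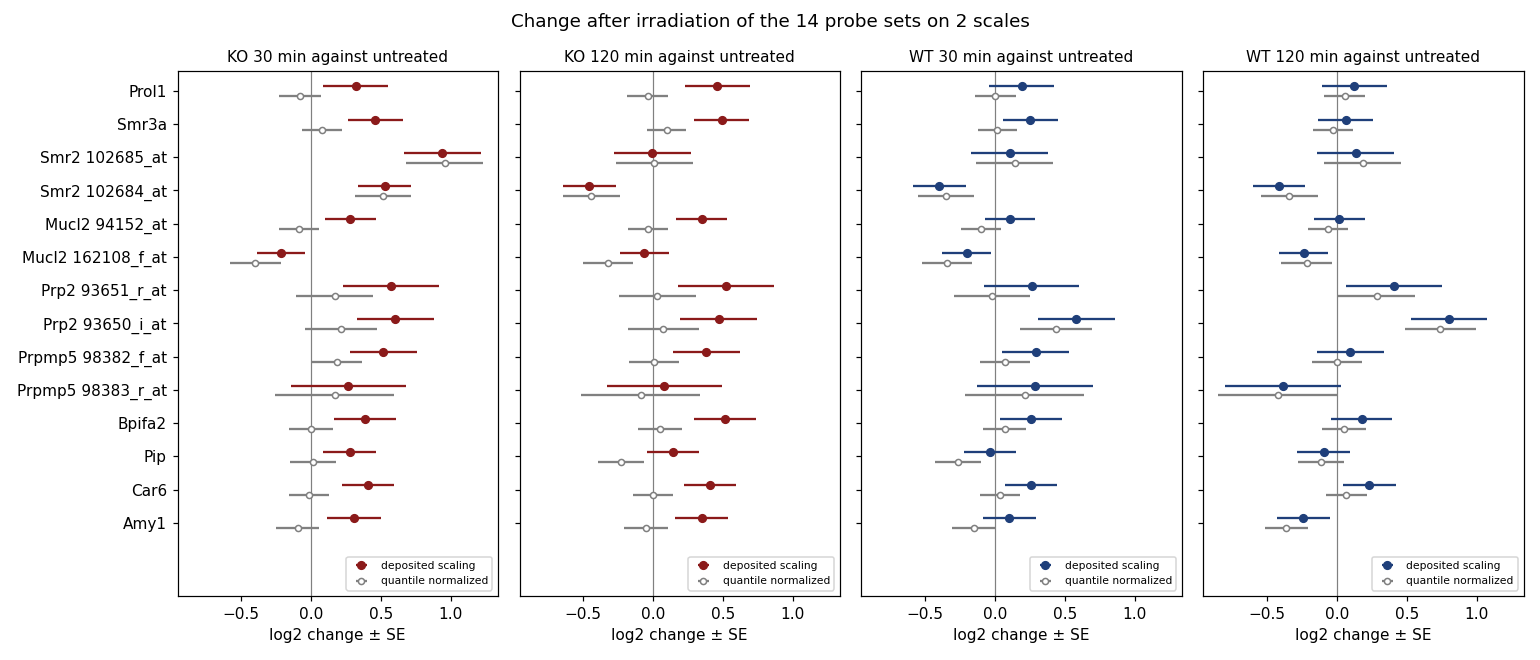
Log2 change after irradiation (± SE) of the 14 probe sets in each genotype and at each time, on the deposited scaling (filled) and after quantile normalization (open). In KO the bright probe sets, other than Mucl2 162108_f_at, sit to the right of 0 on the deposited scaling and lie between -0.23 and 0.21 after quantile normalization. Mucl2 162108_f_at is left of 0 on both, and the 2 Smr2 probe sets keep their place.

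Averaging the 4 irradiated groups against the 2 untreated ones, a comparison added after the data were seen, gave 12 of the 14 probe sets higher with a median of 0.28, against -0.016 over all tested. It called 0 of 14, beside 0.146% of all tested (13 probe sets), and 962 of all tested, 6 of these members, had an unadjusted p under 0.05. Prp2 93650_i_at changed by 0.61 ± 0.16 (adjusted p = 0.247) and Car6 by 0.33 ± 0.11 (adjusted p = 0.348). After quantile normalization 7 of the 14 were higher, the median was 0.0032, and Prp2 93650_i_at changed by 0.37 ± 0.15 (adjusted p = 0.445).

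Without irradiation, untreated KO and WT arrays overlapped for every member probe set, where 5.53% of all tested probe sets were separate and higher in KO and 4.69% separate and lower. The members' median difference, KO over WT, was -0.027 (median SE 0.19), and 0 of 14 were called, beside 0% of all tested (429 probe sets, 0 of these members, had an unadjusted p under 0.05). Averaged over the 3 conditions 12 of the 14 were higher in KO, with a median of 0.16 against 0.013 over all tested, and 0 of 14 were called, beside 0.168% (15 probe sets). After quantile normalization 10 of the 14 were higher and the median was 0.054. The largest was Smr2 102684_at, 0.44 ± 0.11 (adjusted p = 0.271).

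The genotypes' responses were compared directly by the KO response minus the WT response. At 30 min the members' median was 0.19, or -0.015 without KO 30 min A, and 0 of 14 were called, beside 0.0785% of all tested (7 probe sets). At 120 min it was 0.26, or -0.082 after quantile normalization, and 0 of 14 were called, beside 0.157% (14 probe sets). The moderated F test for any difference among the 6 groups called 0 of 14, beside 0.28% (25 probe sets), and its largest value among the members was 8.59 for Smr2 102684_at (adjusted p = 0.141). Prp2 93650_i_at followed with 3.41 (adjusted p = 0.575), and the other 12 had adjusted p-values of 0.637 and above.

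The spread differed between the bright members and the 3 dimmer ones. The 11 members in the top 1% had a median SD over all arrays of 0.251 on the log2 scale and a median SD within groups of 0.192. The other 80 probe sets in that class had 0.202 and 0.151, and all tested probe sets had 0.275 and 0.261. The range of the 6 group means had a median of 0.492 among these members, 0.44 among the other bright probe sets and 0.481 over all tested. The group means of these 11 were thus about as far apart as those of a typical probe set, but with a smaller SD within groups (0.192 against 0.261). The other 3 member probe sets, both of Smr2 and the dimmer of Prpmp5, had medians of 0.408 for the SD, 0.329 within groups and 0.942 for the range of group means.

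Most bright members varied together from array to array. With 1 probe set per gene, the 36 pairs among the 9 bright genes had Pearson r values of 0.119 to 0.949 over the 14 arrays, with a median of 0.813 and all 36 positive. Prol1 and Bpifa2 had r = 0.94 (rho 0.91), with 0.98 over the 7 KO arrays, 0.81 over the 7 WT arrays and 0.88 without KO 30 min A and KO untreated A. Smr2, read by 102685_at, did not follow Smr3a, with r = 0.26 (rho 0.19), and -0.35 without those arrays. The points share the array's scaling, and after quantile normalization the 36 pairs had a median of 0.133, with 23 positive and a range of -0.523 to 0.618.

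**Figure D3:**
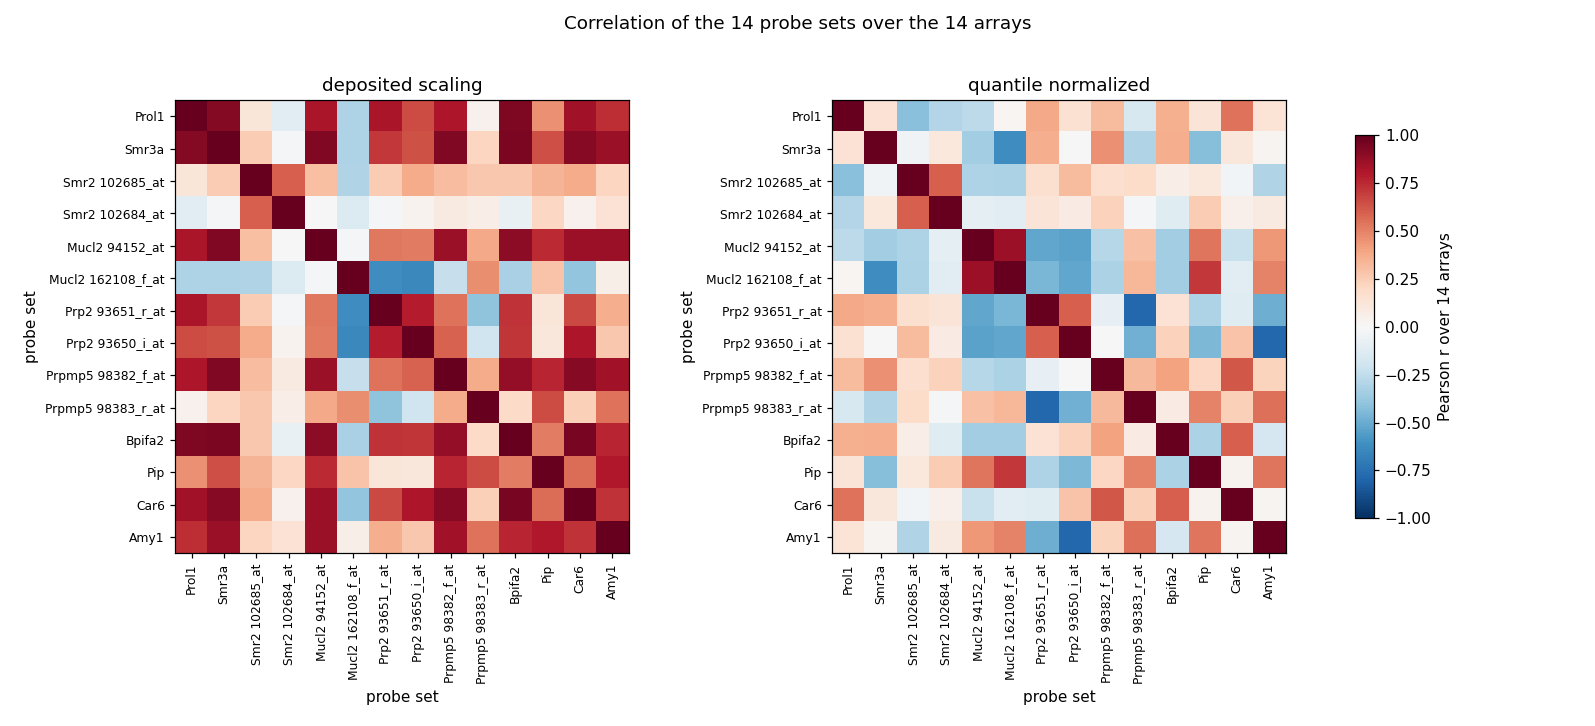
Pearson r over the 14 arrays between each pair of the 14 probe sets, on the deposited scaling (left) and after quantile normalization (right). On the left the bright probe sets form a red block, with the dimmer Mucl2 and Prpmp5 probe sets and both Smr2 probe sets outside it, and on the right that block is gone.

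Bright probe sets of unrelated genes varied in the same way. The mean of the 13 ribosomal protein probe sets in the top 1% followed the mean of the 10 salivary genes with r = 0.81 (rho 0.90), and with r = 0.022 after quantile normalization. The mean of the 10 other salivary secreted genes in the top 1% followed it with r = 0.89 (rho 0.85), while the mean of all 23 on the array, dim ones included, had r = 0.43, and -0.45 after quantile normalization. Their summed intensities ran in the same direction after irradiation in KO. The 13 ribosomal probe sets summed to 48152 to 57620 in untreated KO, 61199 and 65597 at 30 min and 66882 and 75799 at 120 min. Intensities of the 10 salivary genes summed to 55414 to 76745 in untreated KO, 79127 and 102750 at 30 min and 90071 and 93862 at 120 min. Whether scaling of bright values has a part in the salivary changes was not tested.

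**Figure D4:**
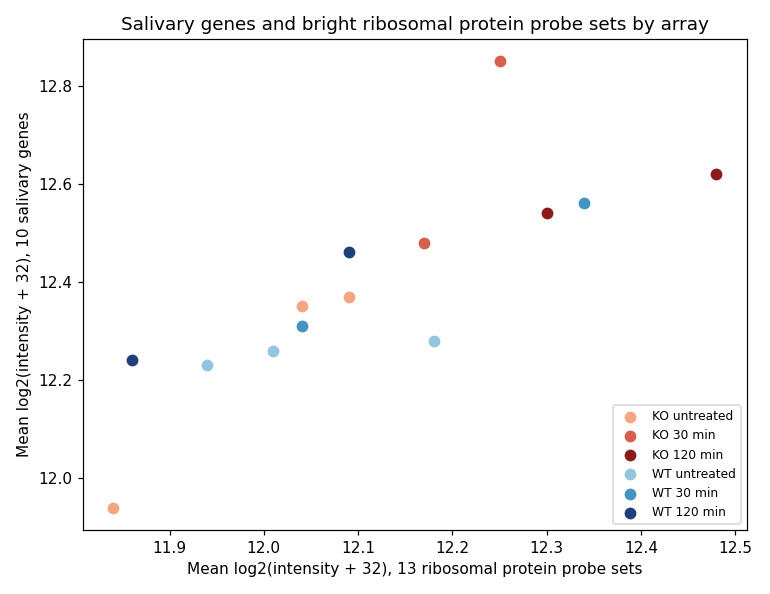
Mean log2(intensity + 32) of the 10 salivary genes against that of the 13 bright ribosomal protein probe sets, 1 point per array, coloured by group. KO untreated A is lowest on both axes. KO 30 min A is highest on the vertical axis (12.85) but not on the horizontal (12.25), where KO 120 min B is highest (12.48). The points rise together (r = 0.81, and 0.89 without KO 30 min A and KO untreated A).

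The genes whose pattern was most like the mean of the 10 were sought among the 3884 tested probe sets with a single gene and an SD not below the median. The major urinary protein gene Mup5, a carrier of small lipophilic molecules, led with r = 0.92 over 14 arrays, at 4555 to 8474. Rnf225 (0.81), Fzd6 (0.81), Akap8l (0.79), the ribosomal protein gene Rpl41 (0.79) and Pdcd4 (0.79) followed. Rnf225 and Fzd6 were dim, with mean intensities of 57.6 and 26.7, where the arrays' 40th percentiles were 38.6 to 55.5. After quantile normalization r was 0.57 for Mup5, 0.48 for Rnf225, 0.53 for Fzd6, 0.40 for Akap8l, 0.77 for Pdcd4 and 0.098 for Rpl41. Without the condition on spread, a choice made after the data were seen, Wfdc12 (0.97) and the kallikrein Klk1 (0.94) led among 7928 probe sets. Kallikreins Klk1b16, Klk1b1 and Klk1b22 were also among the 10 nearest. After quantile normalization r was 0.44 for Wfdc12 and negative for these kallikreins, at -0.10 for Klk1, -0.48 for Klk1b16, -0.57 for Klk1b1 and -0.41 for Klk1b22.

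Other genes of the same secretions also had no call. Of a list of 46 other salivary secreted genes 23 were on the array and 20 were tested, and 0 of 20 passed the test in any of the comparisons. Their median change was 0.28 in KO at 30 min, 0.25 in KO at 120 min, 0.15 in WT at 30 min and 0.079 in WT at 120 min, and 0.030, -0.0059, -0.020 and -0.00093 after quantile normalization. The largest change in KO was that of the dim Ltf, lactoferrin, an iron-binding protein, at -1.22 ± 0.60 at 30 min (adjusted p = 0.627). Among bright ones the largest was Klk1b8, a glandular kallikrein, with 0.95 ± 0.25 in KO at 120 min (adjusted p = 0.531). Egf, the growth factor made in ducts of the submandibular gland, changed by 0.51 ± 0.17 in KO at 30 min (adjusted p = 0.459) and by 0.25 ± 0.17 in WT (adjusted p = 0.976).

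Genes of the gland's cells rather than its secretions were followed through a list of 37 salivary epithelium genes, 27 of them tested. The median change was 0.015 in KO at 30 min, -0.070 in KO at 120 min, 0.023 in WT at 30 min and 0.19 in WT at 120 min (20 of 27 higher, 0.17 after quantile normalization), and 1 gene was called in any comparison. Cftr, the chloride channel of duct cells, read 174.2, 162.5 and 185.7 in untreated WT, then 225.1 and 203.2 (30 min) and 345.2 and 354.7 (120 min). It rose in WT at 120 min by 0.89 ± 0.18 (adjusted p = 0.0457), where 0.471% of all tested probe sets were called. The change was 0.80 to 1.01 under 25 alternatives, but it was called under 6 of them and not under 19, among them quantile normalization (adjusted p = 0.0711) and leaving out any single WT array (0.0709 to 0.394). The KO response minus the WT response was -1.12 ± 0.25 at that time (adjusted p = 0.17). In a list of 51 secretory pathway genes, 42 tested, 0 were called, with medians of -0.015 and -0.062 in KO and -0.010 and 0.022 in WT at the 2 times. The summed intensity of the epithelium list, over 28 genes, was 11888 to 15655 on the 14 arrays, and its mean correlated with that of the 10 genes with r = -0.49.

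Marker lists of other tissues were followed on every array. The 12 exocrine pancreas genes, whose gland also makes amylase, summed to 595.5 to 1163.3, with Cela1 at 13.7 to 84.8 and Prss2 at 8.2 to 55.8, neither above the 54.9 percentile of any array. The list was not uniformly dim: 3 of the 12 exceeded the 40th percentile of every array, and 3 were below the median of every array. Probe sets shared by Amy2 genes, the pancreatic amylases, read 0.5 to 20.1 and 210.5 to 841.2, while Amy1 read 5377 to 9255. The 13 B cell genes summed to 1724 to 3567, the 17 T cell genes to 937.5 to 1530 and the 8 genes of lymph node stroma to 734.0 to 1422. Of the marker lists 3 had a called gene, named after its values were seen. Cd22 of the B cell list fell in WT at 120 min, where that list's median change was -0.71 over 12 tested genes, and its own change was -2.26 to -1.14 under 24 alternatives, called in all 24. Cd14 of the macrophage list rose in WT at 120 min, by 1.88 to 2.36 under 25 alternatives, called in all 25. Ighm of the plasma cell list was lower in KO averaged over conditions, at -1.48 to -1.24 under 24 alternatives, called in 22, where 0.168% of all tested probe sets were called. Their part in the salivary values was not tested. Glycam1, the neighbour of Mucl2 and a mucin-like protein of lymph node vessels, read 151.4 to 876.5 (70.3 to 95.9 percentile). The 20 skeletal muscle genes were uneven among the untreated KO arrays that both KO comparisons use. They summed to 12637 on A, 5273 on B and 14650 on C, against 2192 to 5606 on the other 11 arrays, and their part in the salivary values of those arrays was not tested.

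**Figure D5:**
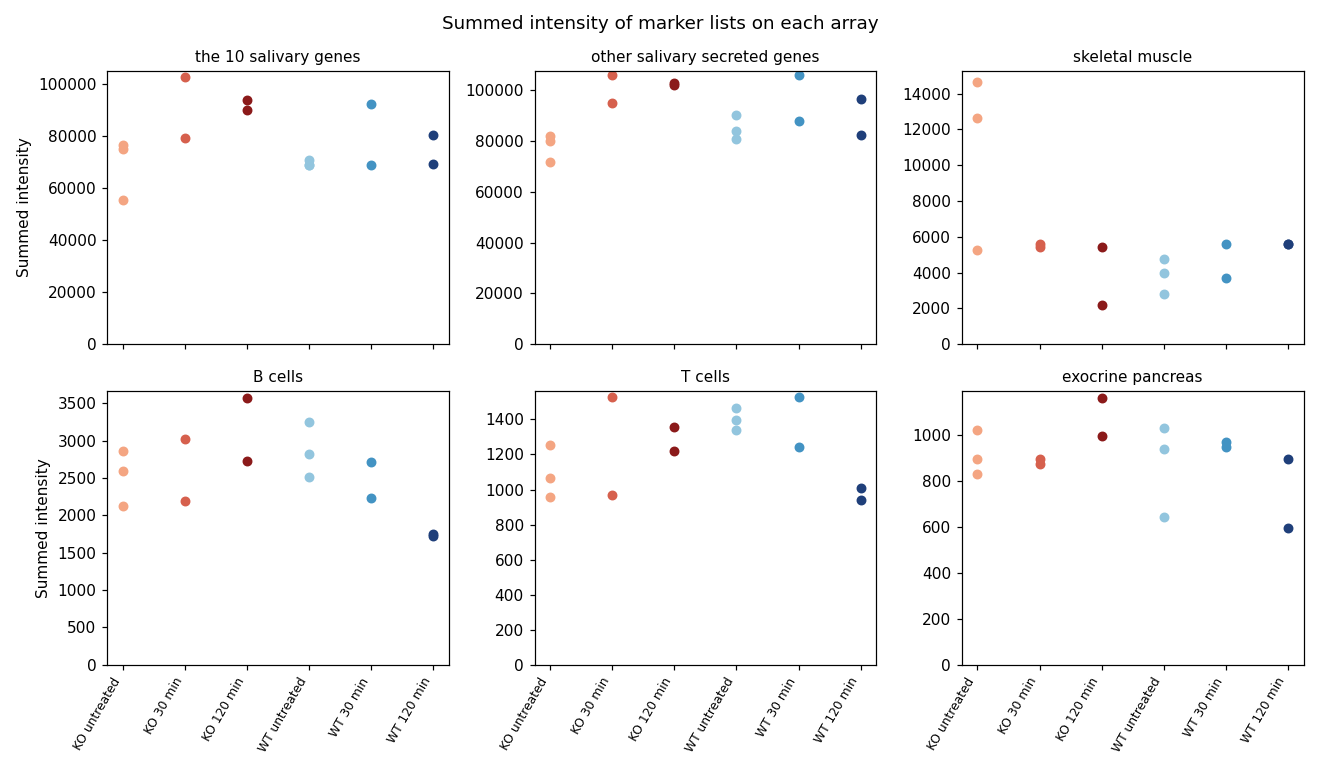
Summed intensity of 6 gene lists on each array, by genotype and time, with every vertical axis starting at 0. The 10 salivary genes sum to 55414 to 102750 and the B cell and T cell lists to under 3600, and the muscle list is high on 2 of the 3 untreated KO arrays.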

How the data were processed

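The authors deposited, for every probe set, a linear intensity on each array, from 0 to 15198.3. The software that made these intensity values is not named in the sources used here. They were already scaled, as read from the values (trimmed mean 150.1 on each array), and that scaling was kept. Groups and replicate letters came from the sample titles. Of 12488 probe sets, 66 controls were left out, and 8916 above their array's own 40th percentile on at least 2 arrays were tested. Values were taken as log2(intensity + 32) and fitted as 6 group means over 14 arrays with limma 3.58.1 in R 4.3.3 (8 residual and 4.91 prior degrees of freedom). Benjamini-Hochberg adjustment of p-values ran over all 8916. An earlier account of these data used quantile normalization, which is an alternative here because it ties the brightest probe sets to the top ranks.

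Gene names came from the platform annotation (10855 probe sets with 1 gene, 396 with several, 1237 with none). Members are named in full, other genes of the salivary lists where called or by largest change, and similar genes as the 10 of highest r. The members, the lists and the tests were chosen with earlier results of these data known. Egf, Klk1, Cela1, Prss2, Cd3e, Cd79b, Madcam1, Glycam1 and the Amy2 probe sets are named as defining markers. The number of arrays limits the precision. On simulated data for WT at 120 min with 8916 probe sets, 60% of 100 changes of size 1 (log2) and 93% of 100 of size 2 were recovered, with 6 false among 159 calls. The simulated noise was independent between probe sets, and changes below size 1, as all member changes in the main fit were, were not simulated. These rates therefore do not tell how often changes of the members' size would be called. Promoters came from RefSeq tables and were aligned with Biopython 1.88. The pairing of replicate letters was checked: same-letter arrays' deviations from their group means correlated between -0.125 and 0.085, and those of different letters between -0.154 and 0.154. No strong shared effect of a letter was seen. In groups of 2 arrays the deviations of A and B mirror each other, so a weak effect could go unseen. The titles do not say what the letters mean.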

Additional observations from a re-analysis of the deposited data

Results flagged for a closer look

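Smr2, read by 102684_at, was flagged at 30 min because its arrays lay apart in opposite directions in the genotypes. Both KO arrays were above the untreated KO arrays and both WT arrays were below the untreated WT arrays. Of all tested probe sets 10.8% were separate and higher in KO at 30 min, and 10.4% separate and lower in WT. The share that did both was not counted. The KO response minus the WT response was 0.93 ± 0.27 on the log2 scale (limma adjusted p = 0.715). It was between 0.71 and 1.14 with 1 array left out, and 0.86 after quantile normalization. The other Smr2 probe set gave 0.83 ± 0.39 (limma adjusted p = 0.905). The 102684_at values at 30 min were 92.4 and 118.5 in KO and 43.2 and 24.1 in WT. Of this probe set's 14 values 7 exceeded the 40th percentile of their array, and the part that background has in them was not tested.

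Amy1 differed in the same way at 120 min, with both KO arrays above and both WT arrays below the untreated arrays of their genotype. The KO response minus the WT response was 0.59 ± 0.27 (limma adjusted p = 0.708). With 1 array left out it was between 0.45 and 0.73, and after quantile normalization it was 0.31. Neither difference passed the adjustment over 8916 probe sets.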

How the results depend on the processing

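Under 25 alternatives (other scaling, offset, floor, filter, samples in the fit, array weights, 14 single arrays left out, the replicate block, and, chosen after seeing the data, leaving out the 3 arrays of lowest correlation), the count of called member probe sets was 0 in all 247 alternative counts, and 0 of 3438 alternative member values were called. Of 126 member changes, 61 changed sign under at least 1 alternative, none of them a called change. With the replicate letter as a block the called members numbered 0 in every comparison, and the median change in KO at 30 min was 0.42 against 0.40. The block changed no call of a member, and what the letters stand for is not given. With arrays left out in turn, the median change of the members was 0.19 to 0.60 in KO at 30 min, 0.24 to 0.43 in KO at 120 min, 0.039 to 0.29 in WT at 30 min and -0.047 to 0.18 in WT at 120 min. Over all probe sets, leaving out KO 30 min B gave 137 calls in KO at 30 min, against 0, and leaving out KO 120 min B gave 20 in KO at 120 min, against 0, none of them members. With 2 or 3 arrays a group, the SE of a single member change had a median of 0.21. Lone arrays were assumed to vary like the other groups. Cftr, called in WT at 120 min, was not called under 19 of the 25 alternatives, including the replicate block (adjusted p = 0.136).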
